A study of Mus musculus with 24 samples.

Results

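Complement and coagulation are plasma protease cascades whose components are made mostly by hepatocytes and secreted into the blood. The members described here are 35 such genes, chosen by symbol from the 24339 genes of the deposited mouse liver RNA-seq tables. They comprise 16 complement genes and 19 genes of clotting, anticoagulation and fibrinolysis. All mice were C57BL/6, and each of the 8 groups has 3 libraries. Adult hCAR-TG mice, in which the labels describe a knock-in of the human receptor CAR, were given CITCO or corn oil at day 60 of age, and newborn hCAR-TG mice were given the same at day 5. Adult wild type (WT) mice at day 60 and newborn WT mice at day 5 were given TCPOBOP or corn oil. The labels give no dose, no detail of the hCAR-TG allele, and do not say whether the 3 replicates of a group are separate animals, so p-values measure only the spread between these libraries.

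CAR, the constitutive androstane receptor encoded by Nr1i3, is a nuclear receptor of hepatocytes that senses foreign chemicals. TCPOBOP is an agonist of mouse CAR and CITCO of human CAR, so receptor and ligand differ together in this design. In complement, mannose-binding lectins (Mbl1, Mbl2) and the C1 complex start proteolysis through Masp1, Masp2 and C1ra, C4b and C2 form a convertase that cleaves C3, and the terminal proteins encoded by Hc (complement C5), C6, C8a, C8b, C8g and C9 assemble the membrane attack pore. In coagulation, the contact factors (F11, F12, Klkb1, Kng1) and the vitamin K dependent proteases (F7, F9, F10, F2) lead to thrombin, which turns fibrinogen (Fga, Fgb, Fgg) into fibrin. Antithrombin (Serpinc1) and heparin cofactor II (Serpind1) inhibit thrombin, and protein C (Proc) and protein S (Pros1) restrain its formation. Plasminogen (Plg), held back by its plasmin inhibitor (Serpinf2), dissolves fibrin.

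Values are FPKM, the authors' measure of fragments scaled to transcript length and library size, so levels can be compared between genes per length. Between libraries they are on the authors' scaling, on which the age differences depend. All 35 members were at or above 1 FPKM in all 24 libraries. Over the 24 libraries the highest median levels were those of C3 (2306 FPKM), Fgb (2240 FPKM), Fgg (1820 FPKM) and Fga (1572 FPKM), and the lowest were those of C9 (38.5 FPKM), C6 (25.6 FPKM) and Pros1 (18 FPKM). C9 had the widest range, between 4.74 and 400 FPKM. The deposited interval of a single member value reached a median of 2.71% of the value to either side, and at most 11.1%, and the read depth behind it is unknown. The members together took 2.47 ± 0.0929% of all FPKM in TCPOBOP-treated adult WT livers, against 3.36 ± 0.266% in corn oil adults (mean ± SD, n = 3 each). In the other 6 groups the mean share lay between 3.29% and 3.82%.

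**Figure D1:**
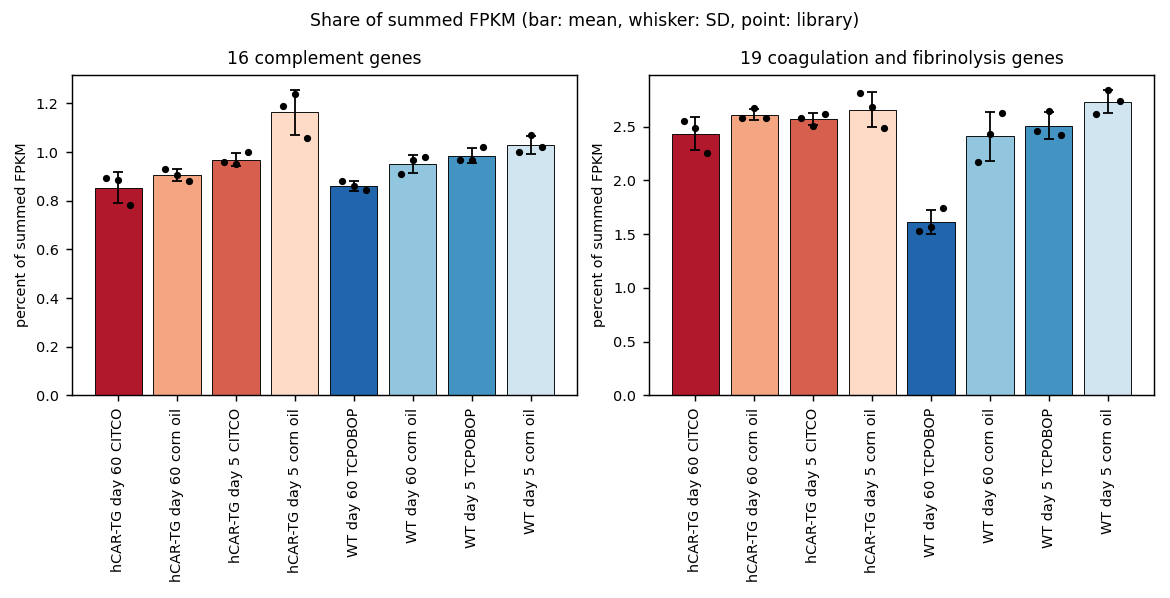
Percent of summed FPKM taken by the 16 complement genes (left) and the 19 coagulation and fibrinolysis genes (right) in each group. Bars are means, whiskers SD and points libraries. The coagulation share of TCPOBOP-treated adult WT libraries, at 1.53% to 1.74%, lies below that of every other library.

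Libraries were checked before the comparisons. Cyp2b10, a P450 gene used as a readout of CAR, was at 1197 to 1259 FPKM with CITCO and 208 to 241 FPKM with corn oil in adult hCAR-TG mice, at 413 to 467 FPKM with CITCO and 1.22 to 5.22 FPKM with corn oil in newborn hCAR-TG mice, at 2404 to 2760 FPKM with TCPOBOP and 9.31 to 17.4 FPKM with corn oil in adult WT mice, and at 1636 to 1788 FPKM with TCPOBOP and 3.3 to 5.57 FPKM with corn oil in newborn WT mice. Mouse Nr1i3 was still listed in the hCAR-TG libraries, at 6.94 to 34 FPKM, and whether these are reads of the human gene cannot be told from these tables. Of the 10 hepatocyte markers 9 were found, and none was at 0 in any library. Pancreatic acinar transcripts summed to 251 FPKM in WT day 5 corn oil replicate 2, 357 FPKM in WT day 5 TCPOBOP replicate 2 and 335 FPKM in hCAR-TG day 5 CITCO replicate 1, against at most 36.8 FPKM elsewhere. The hCAR-TG day 5 corn oil libraries had the lowest correlation between replicates of any group (r = 0.9863 across genes, which are not independent replicates).

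The fibrinogen genes and C9 are shown with the 250 bases before their RefSeq start (build GRCm38.p6, which is mm10), because the fibrinogen genes moved together and C9 moved most. Fga (chr3:83025903-83026152, + strand), Fgb (chr3:83049864-83050113, - strand) and Fgg (chr3:83007474-83007723, + strand) are neighbours on chromosome 3, and C9 is on chromosome 15 (chr15:6445096-6445345, + strand). For Fgb, Fgg and C9 the deposited tables give a start that differs from RefSeq's. Sequences run 5′ to 3′ on the strand of the gene, and capitals mark matches to the motifs described after them.
Fga: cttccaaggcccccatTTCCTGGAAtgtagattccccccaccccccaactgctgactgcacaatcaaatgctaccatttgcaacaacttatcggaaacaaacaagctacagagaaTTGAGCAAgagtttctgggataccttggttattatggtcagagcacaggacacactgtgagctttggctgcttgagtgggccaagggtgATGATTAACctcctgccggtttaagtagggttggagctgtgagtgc
Fgb: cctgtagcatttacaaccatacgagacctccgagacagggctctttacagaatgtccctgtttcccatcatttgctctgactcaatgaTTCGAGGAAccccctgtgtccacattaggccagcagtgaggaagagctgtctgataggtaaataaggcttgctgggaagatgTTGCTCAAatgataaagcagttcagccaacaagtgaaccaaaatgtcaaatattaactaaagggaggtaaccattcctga
Fgg: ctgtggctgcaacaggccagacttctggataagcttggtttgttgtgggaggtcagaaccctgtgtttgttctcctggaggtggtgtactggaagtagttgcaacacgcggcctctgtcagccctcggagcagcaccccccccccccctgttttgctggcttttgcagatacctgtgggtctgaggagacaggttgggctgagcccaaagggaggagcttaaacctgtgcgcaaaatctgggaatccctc
C9: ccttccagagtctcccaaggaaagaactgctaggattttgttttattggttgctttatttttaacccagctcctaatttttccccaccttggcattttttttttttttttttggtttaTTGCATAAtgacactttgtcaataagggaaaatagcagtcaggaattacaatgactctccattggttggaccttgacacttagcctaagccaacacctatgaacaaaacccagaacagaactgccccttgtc

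Motifs were searched on both strands of these windows in 27 members matched in the RefSeq table and in all 32851 promoters. Members were counted by gene and all promoters by window, so a gene with several windows would count differently in each. The HNF1 motif GTTAATNAT was in 3 of the 27 members (Fga, Hc and F13b) and in 0.737% of all promoters. In Fga it began 46 bases before the start, in the other orientation. The C/EBP motif TTGCNNAA was in 7 of the 27 (C3, C9, F11, F9, Fga, Fgb and Klkb1), against 9.56% of all promoters. It began 135 bases before the start in Fga, 80 in Fgb and 132 in C9. The STAT3 motif TTCNNNGAA was in 6 of the 27 (C8a, F9, Fga, Fgb, Masp2 and Pros1), against 7.02% of all promoters, and began 234 bases before the start in Fga and 162 in Fgb. Fgg, whose level followed those of Fga and Fgb, held none of the motifs searched. The HNF4 motif (CAAAGTCCA or CAAAGGTCA) was found in F7 and 0.807% of all promoters, the FOXA motif TGTTTGC in C8b and 4.3%, and TATAAA in Hc and Klkb1 and 12.4%. AGNTCA repeated after 4 bases, a spacing that CAR is known to bind, was in 0 of the 27 members and 0.103% of all promoters. A match is a run of letters and not a measured site.

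Adult WT livers given TCPOBOP had lower RNA of most complement and coagulation genes, with C9, F11, C8a, Mbl1, C8b and the fibrinogen genes falling most and F10, Serpind1 and Pros1 rising most. Of the 35 members, 22 fell and 7 rose with TCPOBOP against corn oil, whereas 15.8% of the 12282 tested genes fell and 31.4% rose (limma, adjusted p under 0.05, 47.2% called in either direction). The members' median log2 change was -0.38, beside 0.06 over all tested genes. In 30 of the 35 members (85.7%) the 3 TCPOBOP libraries did not overlap the 3 corn oil libraries, against 60.0% of tested genes. In bulk liver RNA, fewer cells of a type and less RNA per cell cannot be told apart. Hepatocyte marker sums were 35057 to 37850 FPKM with TCPOBOP and 54910 to 64292 FPKM with corn oil, with 6 of 9 markers called lower. Their part in the members' change was not tested.

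Of the 6 terminal complement genes 5 fell, with a median log2 change of -0.85. C9, the protein that polymerises into the pore wall, was at 51, 57 and 76.8 FPKM with TCPOBOP and at 400, 337 and 257 FPKM with corn oil. The log2 change was -2.41 ± 0.31 (± SE, limma adjusted p = 2.93e-06), and every TCPOBOP library lay below every corn oil library. C8a and C8b, which encode the alpha and beta chains of complement C8 and lie next to each other on chromosome 4, were both lower. C8a was at 87.5, 85.1 and 102 FPKM with TCPOBOP and 225, 232 and 206 FPKM with corn oil (-1.27 ± 0.11, limma adjusted p = 7.06e-09). C8b was at 91.4, 93.1 and 110 FPKM with TCPOBOP against 244, 189 and 169 FPKM with corn oil (-1.01 ± 0.12, limma adjusted p = 5.81e-07). C8g, the small gamma chain encoded on another chromosome, fell by less, to 197, 216 and 222 FPKM with TCPOBOP against 275, 265 and 270 FPKM with corn oil (-0.35 ± 0.09, limma adjusted p = 0.00235). Hc fell by 0.69 ± 0.11 on the log2 scale. C6 was at 52.6, 41.2 and 55.2 FPKM with TCPOBOP and 106, 62.2 and 40.6 FPKM with corn oil, groups that overlapped, and it missed the threshold (limma adjusted p = 0.201).

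Among activators of complement, the pair of mannose-binding lectins went opposite ways. Mbl1 fell to 87, 93.7 and 111 FPKM with TCPOBOP, against 199, 209 and 201 FPKM with corn oil (-1.06 ± 0.10, limma adjusted p = 1.03e-08). Mbl2 rose to 322, 309 and 320 FPKM with TCPOBOP, against 165, 232 and 226 FPKM with corn oil (0.62 ± 0.12, limma adjusted p = 0.000266). Both genes encode lectins that bind sugars on microbes. C4b fell to 117, 119 and 139 FPKM with TCPOBOP, against 233, 251 and 248 FPKM with corn oil (-0.96 ± 0.07, limma adjusted p = 2.65e-10). C4b has a near copy, C4a, which moved alongside it (-0.94), and reads shared by them could be counted to either gene. C2 (-0.45 ± 0.08) and C1ra (-0.31 ± 0.08), which has the near copy C1rb, also fell, Masp1 rose (0.50 ± 0.08), and Masp2 was at -0.04 ± 0.06 (limma adjusted p = 0.636). C3, on which all routes of complement converge, rose to 2260, 2168 and 1922 FPKM with TCPOBOP, against 1185, 1481 and 1626 FPKM with corn oil (0.57 ± 0.10, limma adjusted p = 5.67e-05). Cfb, the protease of the alternative pathway convertase, fell to 283, 277 and 285 FPKM with TCPOBOP against 358, 392 and 380 FPKM with corn oil (-0.42 ± 0.07). Cfi, the protease that inactivates C3b, fell by 0.64 ± 0.09 on the log2 scale.

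All 3 fibrinogen chains fell together in the adults. Fga was at 761, 836 and 993 FPKM with TCPOBOP and 1528, 1798 and 1872 FPKM with corn oil (-1.01 ± 0.11, limma adjusted p = 9.13e-08). Fgb was at 1169, 1243 and 1528 FPKM with TCPOBOP against 2287, 2531 and 2839 FPKM with corn oil (-0.96 ± 0.10, limma adjusted p = 6.59e-08). Fgg was at 869, 977 and 1223 FPKM with TCPOBOP against 1812, 2070 and 2170 FPKM with corn oil (-0.99 ± 0.11, limma adjusted p = 2.70e-07). In all of them the lowest corn oil library exceeded the highest TCPOBOP library, and the 3 genes together took 0.683 ± 0.105% of all FPKM with TCPOBOP, against 1.39 ± 0.155% with corn oil (mean ± SD, n = 3 each). F13b, the carrier subunit of the transglutaminase that crosslinks fibrin, was at 0.01 ± 0.10 (limma adjusted p = 0.976).

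The contact phase genes fell as well, all 4 being called. F11, which encodes factor XI and thus the link from contact activation to F9, was at 10.7, 9.06 and 13.4 FPKM with TCPOBOP and 38.5, 39.6 and 32.6 FPKM with corn oil (-1.67 ± 0.12, limma adjusted p = 2.53e-10). Its neighbour on chromosome 8, Klkb1 (plasma prekallikrein), fell by 0.71 ± 0.09 on the log2 scale. Kng1, whose product is cut to release bradykinin, fell by 0.85 ± 0.10, to 471, 467 and 531 FPKM with TCPOBOP against 748, 928 and 994 FPKM with corn oil. Kng1 has a close relative, Kng2, so reads may be divided between them. F12, the factor that starts contact activation, fell by 0.27 ± 0.06.

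The clotting proteases split. F10, which encodes the protease that activates prothrombin, rose to 243, 243 and 235 FPKM with TCPOBOP, against 127, 133 and 141 FPKM with corn oil (0.84 ± 0.06, limma adjusted p = 7.10e-11). F7, the partner of tissue factor, is its neighbour (chr8:13026034-13035805 and chr8:13037308-13056676, mm10) and rose too, to 69.6, 72.7 and 69.3 FPKM with TCPOBOP against 42, 48.2 and 53.3 FPKM with corn oil (0.56 ± 0.07, limma adjusted p = 9.41e-07). F9 (-0.74 ± 0.13), F5, the cofactor of F10 (-0.52 ± 0.11), and F2, prothrombin (-0.33 ± 0.06), fell. Of the thrombin inhibitors, Serpind1 rose to 440, 431 and 415 FPKM with TCPOBOP, against 224, 256 and 242 FPKM with corn oil (0.83 ± 0.06, limma adjusted p = 7.36e-11), while Serpinc1 was at 0.12 ± 0.06 (limma adjusted p = 0.105). Pros1 rose to 31.1, 29.8 and 30.7 FPKM with TCPOBOP, against 16.6, 19.2 and 17.7 FPKM with corn oil (0.74 ± 0.11, limma adjusted p = 5.91e-06), while Proc, whose active form uses protein S as its cofactor, fell by 0.37 ± 0.05 on the log2 scale. Plg (0.06 ± 0.06) and Serpinf2 (0.11 ± 0.09) missed the threshold (limma adjusted p = 0.47 and 0.358).

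**Figure D2:**
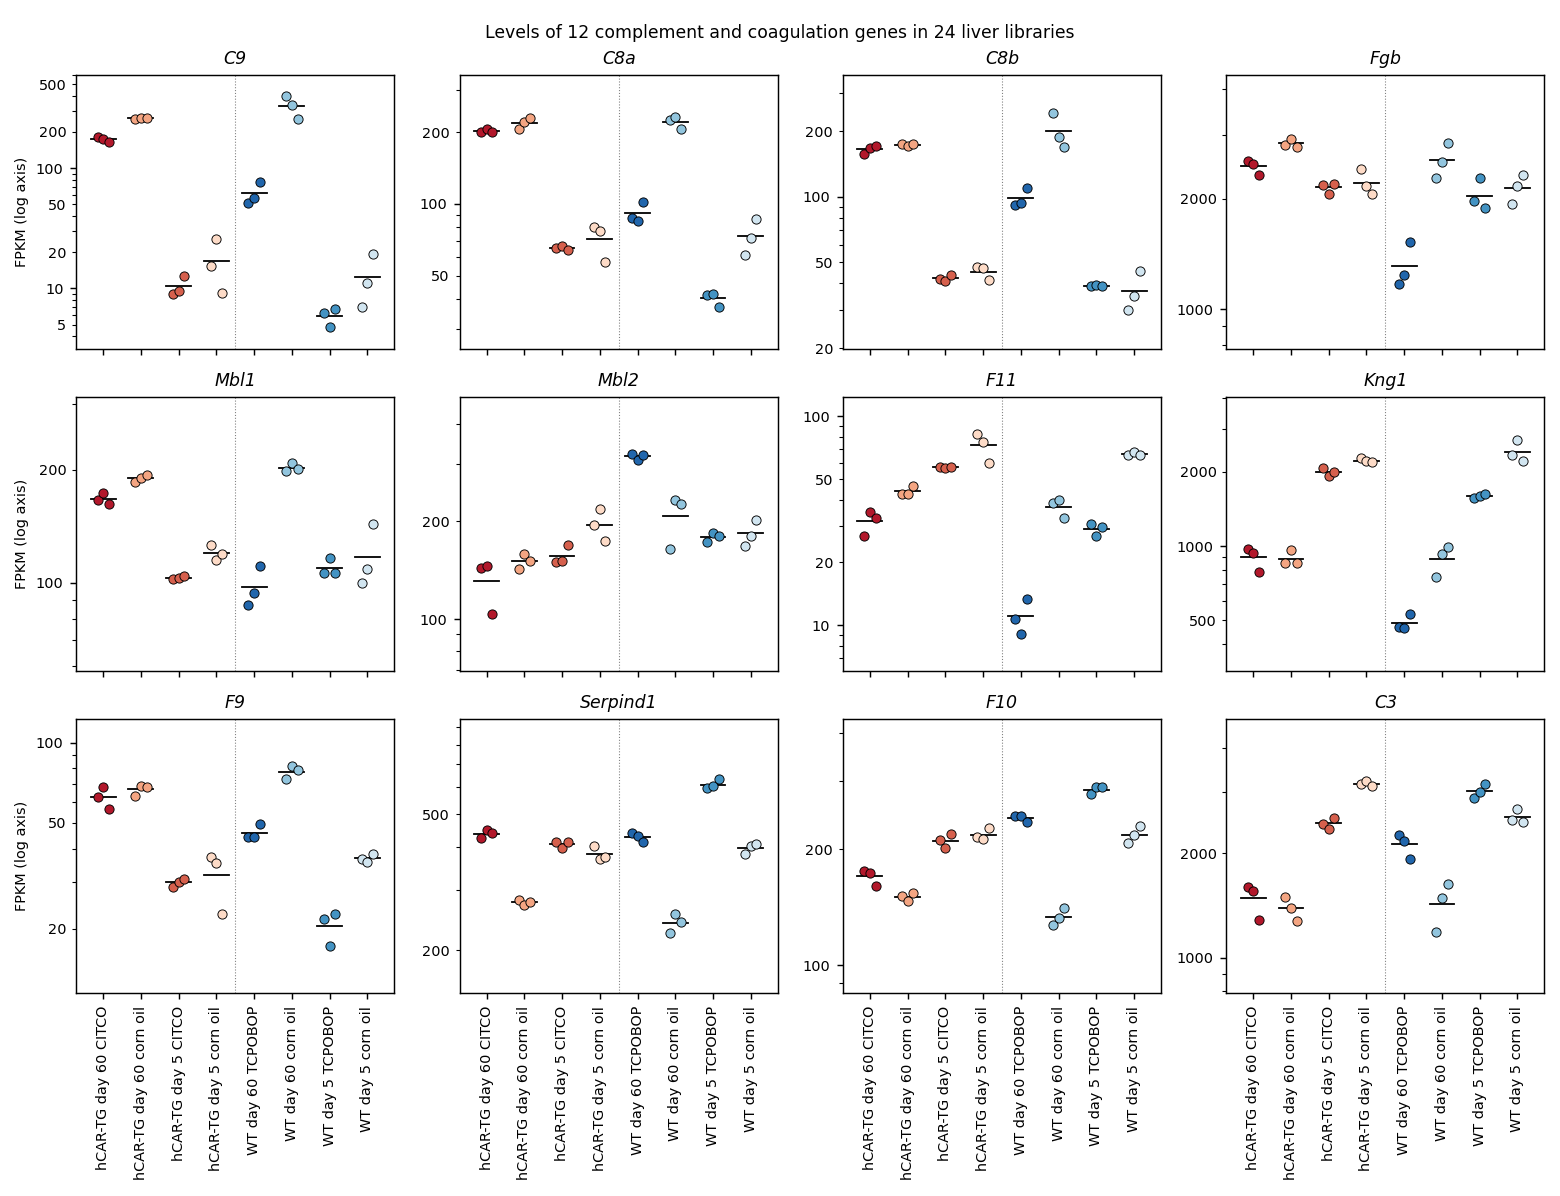
FPKM on a log scale in each library for members named in the text, by group. Points are libraries and horizontal lines are group means. C9 in adult WT mice sits at 51 to 76.8 FPKM with TCPOBOP and 257 to 400 FPKM with corn oil.

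Related genes outside the 35 were counted from lists. Of 29 tested other complement components and regulators, 18 fell and 1 rose in TCPOBOP-treated adults, with a median log2 change of -0.31. The riser was Clu, which encodes clusterin, a chaperone that also binds the terminal complement complex (1418 ± 70.2 FPKM with TCPOBOP against 646 ± 28.1 FPKM with corn oil, 1.13 ± 0.06, limma adjusted p = 2.71e-12). Serping1, the C1 inhibitor that also blocks the contact proteases, fell to 216 ± 21.1 FPKM with TCPOBOP, against 399 ± 34.7 FPKM with corn oil (-0.88 ± 0.07). Vtn, encoding vitronectin, fell by 0.68 ± 0.07 on the log2 scale. Of 24 other coagulation and fibrinolysis genes, 6 rose and 5 fell (median -0.04). Mcfd2 (0.74 ± 0.06) and Lman1 (0.64 ± 0.10), which encode a complex that carries factors V and VIII out of the endoplasmic reticulum, were among the risers. Of the 4 vitamin K cycle genes 3 rose and 1 fell, Ggcx, the carboxylase that modifies the vitamin K dependent factors, by 0.30 ± 0.06. Of 20 acute phase genes 8 rose and 3 fell (median 0.27), the risers including Hpx (0.89 ± 0.06), which encodes the haem scavenger hemopexin, Orm3 (3.11 ± 0.25) and Apcs (1.27 ± 0.11), serum amyloid P. Itih3, with the lowest adjusted p of this list, was lower (-1.60 ± 0.07, limma adjusted p = 5.85e-14). Of 12 liver transcription factor genes 4 fell and 0 rose (limma, adjusted p under 0.05), including Cebpa (-0.78 ± 0.12) and Hnf4a (-0.33 ± 0.07), which drive hepatocyte genes.

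In newborn WT livers, TCPOBOP lowered C4b, F11, C8a, F9 and F5 RNA and raised Serpind1, F10, F7 and Pros1, while the fibrinogen genes missed the threshold. All 4 contact genes were called lower, but only 3 of the 6 terminal complement genes were (Hc, C8a and C9). Of the 35 members 13 fell and 6 rose against corn oil, whereas 11.3% of tested genes fell and 24.6% rose (limma, adjusted p under 0.05, 35.9% called). The median log2 change was -0.04 for members and 0.04 for all tested genes, and 24 members (68.6%) had non-overlapping groups against 47.6% of tested genes. The number closing the read file names, whose meaning the labels do not give, was 4 in all TCPOBOP and 3 in all corn oil newborns, so it and the treatment cannot be told apart. Hepatocyte marker sums were 71546 to 76876 FPKM with TCPOBOP and 86528 to 89160 FPKM with corn oil, with 2 markers higher and 3 lower. Stellate cell marker sums were 180 to 237 FPKM with TCPOBOP and 273 to 292 FPKM with corn oil (5 of 10 lower), and Kupffer cell marker sums were 798 to 935 FPKM with TCPOBOP and 669 to 700 FPKM with corn oil (4 of 11 higher). The part of these markers in the members' change was not tested.

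F11 was at 30.6, 26.8 and 29.6 FPKM with TCPOBOP and 65.3, 67.3 and 65.5 FPKM with corn oil in the newborns (-1.16 ± 0.12, limma adjusted p = 1.31e-07). C4b was at 90.1, 92 and 92.8 FPKM with TCPOBOP against 207, 204 and 195 FPKM with corn oil (-1.13 ± 0.07, limma adjusted p = 4.82e-11). Both fell more than 2-fold on the log2(FPKM + 1) scale, where no other member did. C8a fell to 41.6, 42.1 and 37.2 FPKM with TCPOBOP, against 61.2, 71.9 and 86.6 FPKM with corn oil (-0.83 ± 0.11). F9, the protease missing in haemophilia B, fell to 21.8, 17.2 and 22.8 FPKM with TCPOBOP, against 36.6, 35.8 and 38.3 FPKM with corn oil (-0.82 ± 0.13), and F5 to 56.4, 57.8 and 59 FPKM with TCPOBOP, against 113, 103 and 91.1 FPKM with corn oil (-0.81 ± 0.11). C9 was at 6.31, 4.74 and 6.78 FPKM with TCPOBOP and at 6.99, 11 and 19.4 FPKM with corn oil (-0.86 ± 0.31, limma adjusted p = 0.0371). Its groups came close to touching, and the call was lost when the newborn WT libraries were fitted alone (adjusted p = 0.133) or without the libraries with pancreatic transcripts (-0.76, adjusted p = 0.189). As plain FPKM, C9 averaged 5.94 ± 1.07 with TCPOBOP and 12.4 ± 6.32 with corn oil (mean ± SD, n = 3 each). C8b (0.10 ± 0.12) and C6 were not called lower, and C6, at 9.85, 8.67 and 10.3 FPKM with TCPOBOP and 6.58, 6.62 and 5.69 FPKM with corn oil (0.54 ± 0.23, limma adjusted p = 0.0815), was called higher when these libraries were fitted alone (adjusted p = 0.0013). Of the contact genes, F12 lost its call when fitted alone (adjusted p = 0.0909) and Klkb1 with no filter (adjusted p = 0.0564), and both lost it without the pancreatic libraries (adjusted p = 0.0882 and 0.254). Serpinf2 (adjusted p = 0.0863), Masp1 (0.122) and F2 (0.0535) also lost their calls without those libraries.

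The risers among the newborns were Serpind1, F10, F7, Pros1, Serpinf2 and Masp1. Serpind1 was at 596, 604 and 633 FPKM with TCPOBOP and 382, 405 and 408 FPKM with corn oil (0.62 ± 0.06, limma adjusted p = 1.86e-08). F10 was at 277, 289 and 289 FPKM with TCPOBOP against 207, 217 and 230 FPKM with corn oil (0.39 ± 0.06), and F7 at 58.3, 65.2 and 60.5 FPKM with TCPOBOP against 46.3, 46.9 and 47.7 FPKM with corn oil (0.38 ± 0.07). Pros1 rose to 20.6, 18.1 and 19.7 FPKM with TCPOBOP, against 15.3, 15.3 and 15 FPKM with corn oil (0.34 ± 0.11), and in all 4 genes the groups did not overlap. Fga (-0.03 ± 0.11), Fgb (-0.07 ± 0.10) and Fgg (-0.04 ± 0.11) missed the threshold. Fgb was at 1969, 2277 and 1887 FPKM with TCPOBOP and 1935, 2173 and 2323 FPKM with corn oil, which overlap. Cfi fell by 0.54 ± 0.09 on the log2 scale and Kng1 by 0.59 ± 0.10. In the related lists, 11 of 29 other complement genes fell and 3 rose, Clu among the risers (1068 ± 20.3 FPKM with TCPOBOP against 368 ± 6.35 FPKM with corn oil, 1.54 ± 0.06), and Ggcx rose by 0.52 ± 0.06. Of 12 liver transcription factor genes 4 fell and 3 rose (limma, adjusted p under 0.05). Cebpa was lower in newborns as in adults (-0.87 ± 0.12), and Cebpb was higher (0.64 ± 0.15). Any part of these factors in the members' change was not tested at either age.

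The adult and newborn responses to TCPOBOP had 18 members called in the same direction, 5 higher and 13 lower, and 0 in opposite directions. These are 62.1% of the 29 members called in adults and 94.7% of the 19 called in newborns, and the exception in newborns was Serpinf2, which rose by 0.33 ± 0.09 there. How far the calls of all tested genes overlap between ages was not counted. In the test of the difference between ages (adult response minus newborn response), 11 members were lower and 3 higher, whereas 9.76% of tested genes were lower and 13.7% higher (limma, 23.4% called). The newborn part of this difference cannot be told apart from the read file number. The largest differences were those of C9 (-1.55 ± 0.44, limma adjusted p = 0.0143) and C8b (-1.11 ± 0.17, limma adjusted p = 5.09e-05). C8b was at 38.9, 39.1 and 38.6 FPKM with TCPOBOP and 29.9, 34.7 and 45.3 FPKM with corn oil in newborns (0.10 ± 0.12), so its fall was called in adults and not in newborns. Fga (-0.98 ± 0.15, limma adjusted p = 4.91e-05), Fgb (-0.89 ± 0.14), Fgg (-0.95 ± 0.16) and Mbl1 (-0.98 ± 0.14) differed in the same way. Mbl1 in newborns was at 106, 116 and 106 FPKM with TCPOBOP and 99.7, 109 and 143 FPKM with corn oil. F11 (-0.50 ± 0.17), C2 (-0.62 ± 0.11), Klkb1 (-0.47 ± 0.13), C1ra (-0.44 ± 0.11) and Proc (-0.29 ± 0.08) were the other members with a lower response in adults. Mbl2 (0.66 ± 0.17), F10 (0.46 ± 0.08) and Serpind1 (0.22 ± 0.08) had a higher response in adults. The Serpind1 difference was not called with the replicate block (adjusted p = 0.0623), after rescaling (0.118), with the compared libraries alone (0.0997) or without the pancreatic libraries (0.168). Those of F11 (adjusted p = 0.0614) and Proc (0.0543) were also lost without the pancreatic libraries, and that of F11 with no filter (0.056). The falls of C4b, Hc, F9, F5, Cfb, Cfi, F2, F12, C8a and Kng1 were not called different between ages, and a p above the threshold does not show that they were equal.

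**Figure D3:**
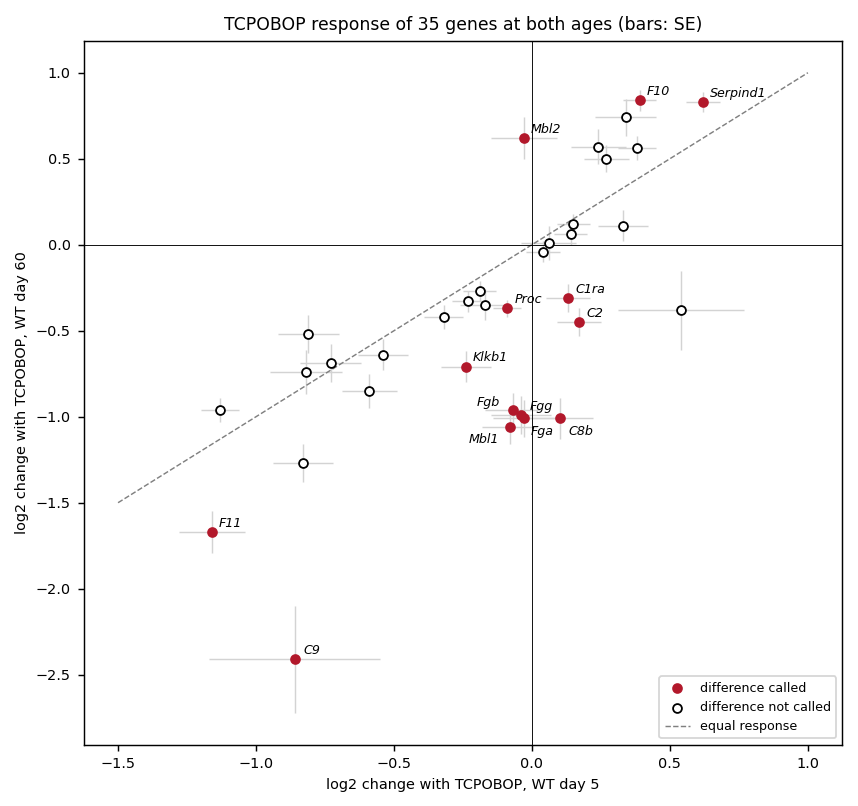
Log2 change with TCPOBOP in WT adults (y axis) and newborns (x axis) for the 35 members, each point a gene with SE bars. Filled points are those whose age difference was called, and the dashed line marks equal responses. The fibrinogen genes, C8b and Mbl1 lie near 0 on the newborn axis and near -1 on the adult axis.

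In adult hCAR-TG livers given CITCO, few of these genes changed. Of the 35 members, Serpind1 and Pros1 rose and F11 and C4b fell against corn oil (limma, adjusted p under 0.05), and 8.37% of tested genes were called (4.40% higher, 3.97% lower). The members' median log2 change was -0.01, beside -0.00 over all tested genes. The 3 libraries of each group did not overlap in 13 members (37.1%), against 31.9% of tested genes.

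Serpind1 was at 426, 449 and 442 FPKM with CITCO and 280, 271 and 277 FPKM with corn oil (0.67 ± 0.06, limma adjusted p = 5.06e-08), and no libraries of the groups overlapped. Pros1 was at 23.3, 25.4 and 20.5 FPKM with CITCO against 16.4, 19 and 17.8 FPKM with corn oil (0.36 ± 0.11, limma adjusted p = 0.0395). F11 was at 26.9, 34.9 and 32.8 FPKM with CITCO against 42.7, 42.6 and 46.5 FPKM with corn oil (-0.47 ± 0.12, limma adjusted p = 0.0147). C4b was at 225, 242 and 215 FPKM with CITCO against 275, 274 and 260 FPKM with corn oil (-0.25 ± 0.07, limma adjusted p = 0.0293). The read file number was 2 in the corn oil libraries and CITCO replicate 1, and 3 in CITCO replicates 2 and 3, so it goes partly with the treatment. Pros1 lost its call with no filter (adjusted p = 0.0662) and with the read file number as a factor (0.054), and C4b after rescaling (0.0758) and with that number (0.0674). All 4 were called in the same direction in TCPOBOP-treated WT adults, which makes 100% of the members called with CITCO and 13.8% of those called with TCPOBOP. How far the calls of all tested genes overlap between the ligands was not counted. C9 was at 181, 176 and 166 FPKM with CITCO and 258, 262 and 262 FPKM with corn oil, without overlap. Its log2 change of -0.58 ± 0.31 missed the threshold in the fit of all groups (limma adjusted p = 0.309), whose spread includes the variable newborn C9 values, and passed it when adult hCAR-TG libraries were fitted alone (adjusted p = 0.000391). Fibrinogen was not called: Fgb was at 2542, 2499 and 2332 FPKM with CITCO and 2809, 2919 and 2782 FPKM with corn oil (-0.21 ± 0.10, limma adjusted p = 0.237). C3 (0.09 ± 0.10), F2 (0.01 ± 0.06) and C8g (0.02 ± 0.09) also missed the threshold. Of 29 other complement genes 2 fell and 1 rose, the riser being Clu (759 ± 61.0 FPKM with CITCO against 614 ± 8.57 FPKM with corn oil, 0.30 ± 0.06), and C4a fell with C4b (-0.30 ± 0.07). Without CITCO replicate 1 the count of members called was 1, and without any single corn oil library it was 2. The shares of all tested genes called in these fits are not given here, so the counts are not read as particular to the members.

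In newborn hCAR-TG livers, CITCO lowered several complement genes by small amounts. Of the 35 members 8 fell and 1 rose (limma, adjusted p under 0.05), whereas 8.82% of tested genes fell and 8.27% rose (17.1% called). The median log2 change was -0.15 for the members and 0.01 for all tested genes, and 17 members (48.6%) had non-overlapping groups against 4299 of the 12282 tested genes. C4b fell to 178, 186 and 191 FPKM with CITCO, against 246, 272 and 230 FPKM with corn oil (-0.43 ± 0.07, limma adjusted p = 0.000277). C3 fell to 2424, 2352 and 2525 FPKM with CITCO, against 3151, 3232 and 3119 FPKM with corn oil (-0.38 ± 0.10, limma adjusted p = 0.0122), and C2 to 47.5, 43.4 and 49.3 FPKM with CITCO, against 61, 53.4 and 59.6 FPKM with corn oil (-0.31 ± 0.08, limma adjusted p = 0.00948). Serpinf2 (-0.31 ± 0.09), Cfb (-0.23 ± 0.07), F2 (-0.22 ± 0.06) and Masp2 (-0.19 ± 0.06) fell by less.

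Hc (-0.38 ± 0.11, limma adjusted p = 0.0185) was at 146, 142 and 149 FPKM with CITCO and 221, 212 and 144 FPKM with corn oil, so corn oil replicate 3 lay with the CITCO libraries. This library shares the read file number 5 with the CITCO libraries, and the other corn oil libraries have 4. With that number as a factor, Hc was at 0.01 (adjusted p = 0.927) and 13 members were called. The single riser was Pros1, at 18.5, 17.9 and 17.6 FPKM with CITCO and 16, 14.7 and 10.3 FPKM with corn oil (0.40 ± 0.11, limma adjusted p = 0.014). Kng1 (-0.15 ± 0.10) and Fgb (-0.04 ± 0.10) missed the threshold. In the related lists 10 of 29 other complement genes fell, 1 rose, and Ggcx fell by 0.43 ± 0.06 on the log2 scale. Intestinal markers moved too, 7 of 8 tested ones lower, with sums of 54.1 to 63.2 FPKM with CITCO against 77.8 to 110 FPKM with corn oil, and 6 of 10 endothelial markers fell, with sums of 150 to 157 FPKM with CITCO against 191 to 207 FPKM with corn oil. Erythroid marker sums were 8115 to 9304 FPKM with CITCO and 11596 to 14283 FPKM with corn oil (2 of 7 lower), and neutrophil marker sums were 561 to 1081 FPKM with CITCO and 1120 to 1469 FPKM with corn oil (4 of 8 lower). The part of these markers in the members' change was not tested. The count of 9 members fell to 3 without CITCO replicate 2, to 3 without the libraries with pancreatic transcripts, and to 2, C4b and C3, when these groups were fitted alone. The shares of all tested genes called in these fits, and with the read file number, are not given here. These counts are therefore not read as particular to the members.

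The adult and newborn CITCO responses had 2 members in common, Pros1 higher and C4b lower, which are 50% of the 4 adult calls and 22.2% of the 9 newborn calls. This overlap, too, was not counted over all tested genes. CITCO and the read file number go partly together at both ages. In newborns Pros1 lost its call when fitted alone (adjusted p = 0.177) and without the pancreatic libraries (0.0581). In the test of the age difference, 3 members had a higher response in adults and 0 a lower one (limma, against 5.37% higher and 4.62% lower of tested genes, 9.99% called). They were Serpind1 (0.57 ± 0.08, limma adjusted p = 0.000102), C2 (0.54 ± 0.11, limma adjusted p = 0.00305) and C3 (0.47 ± 0.14, limma adjusted p = 0.0367), of which C3 lost its call with no filter (adjusted p = 0.0522) and without the pancreatic libraries (0.0845). Serpind1 in newborns was at 416, 397 and 414 FPKM with CITCO and 404, 369 and 375 FPKM with corn oil (0.10 ± 0.06), and these groups overlapped. Without hCAR-TG day 5 corn oil replicate 3, 7 members were called, and the share of all tested genes called in that fit is not given here.

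**Figure D4:**
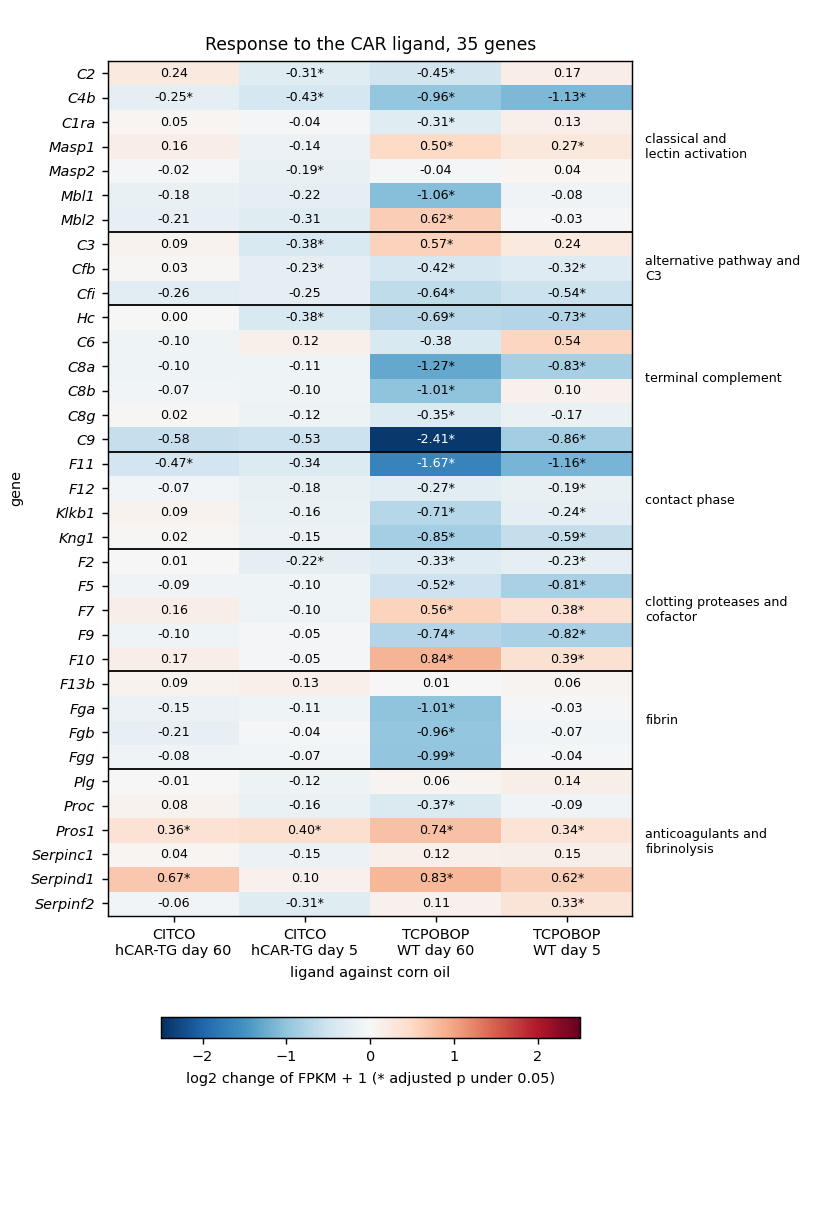
Log2 change with ligand against corn oil for the 35 members, ordered by role, in adult and newborn hCAR-TG mice with CITCO and adult and newborn WT mice with TCPOBOP. Stars mark limma adjusted p under 0.05; the column with most calls is adult WT mice with TCPOBOP (29 of 35).

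CITCO in hCAR-TG mice and TCPOBOP in WT mice were compared by the difference of their responses. In adults 21 members had a higher response with CITCO and 5 a lower one, whereas 9.77% of tested genes were higher and 24.1% lower (limma, 33.8% called). The median difference was 0.39 for the members and -0.07 for all tested genes. The largest differences were C9 (1.83 ± 0.44, limma adjusted p = 0.00306), F11 (1.19 ± 0.17, limma adjusted p = 1.26e-05), C8a (1.16 ± 0.16, limma adjusted p = 8.67e-06) and C8b (0.94 ± 0.17, limma adjusted p = 0.000223). For C8a, CITCO adults were at 201, 205 and 201 FPKM with CITCO against 206, 221 and 228 FPKM with corn oil, a change of -0.10 ± 0.11. Fgg (0.91 ± 0.16), Mbl1 (0.88 ± 0.14), Kng1 (0.87 ± 0.14), Fga (0.85 ± 0.15) and Fgb (0.75 ± 0.14) followed. The 5 with a lower response to CITCO were Mbl2 (-0.84 ± 0.17), F10 (-0.67 ± 0.08), C3 (-0.49 ± 0.14), F7 (-0.39 ± 0.10) and Masp1 (-0.34 ± 0.11). After rescaling, C3 (adjusted p = 0.0538) and Masp1 (0.152) were not called. Serpind1 was not called (-0.17 ± 0.08, limma adjusted p = 0.108), nor was Pros1 (-0.39 ± 0.15, limma adjusted p = 0.053). Receptor, ligand and an unstated dose differ together here, so their parts cannot be told apart, and Cyp2b10 in hCAR-TG adults was already at 208 to 241 FPKM with corn oil.

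In newborns 6 members had a higher response with CITCO and 10 a lower one (limma, against 11.5% and 22.2% of tested genes, 33.7% called). The TCPOBOP part of this difference cannot be told apart from the read file number. F11 (0.83 ± 0.17, limma adjusted p = 0.000941), F9 (0.77 ± 0.18, limma adjusted p = 0.00318), C8a (0.72 ± 0.16, limma adjusted p = 0.00186), C4b (0.71 ± 0.10, limma adjusted p = 1.90e-05), F5 (0.71 ± 0.15) and Kng1 (0.44 ± 0.14) had the higher response with CITCO. Serpinf2 was called in opposite directions, lower with CITCO (524, 546 and 547 FPKM with CITCO against 657, 602 and 756 FPKM with corn oil) and higher with TCPOBOP (859, 943 and 844 FPKM with TCPOBOP against 730, 696 and 673 FPKM with corn oil). Its difference was -0.64 ± 0.13 (limma adjusted p = 0.000672). The CITCO fall was not called with the compared libraries alone (adjusted p = 0.127), and without the pancreatic libraries both the CITCO fall (0.079) and the TCPOBOP rise (0.0863) were lost. C3 (-0.62 ± 0.14), Serpind1 (-0.52 ± 0.08), F7 (-0.48 ± 0.10), C2 (-0.48 ± 0.11) and F10 (-0.44 ± 0.08) were also lower in the CITCO response.

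With corn oil, hCAR-TG and WT livers differed in few members. In these corn oil libraries the read file number was 2 in hCAR-TG and 1 in WT adults. It was 4 or 5 in hCAR-TG and 3 in WT newborns, so it separates the genotypes completely at both ages. In adults Serpind1 was higher in hCAR-TG (280, 271 and 277 FPKM with corn oil against 224, 256 and 242 FPKM in WT, 0.20 ± 0.06, limma adjusted p = 0.0378) and Mbl2 lower (143, 159 and 151 FPKM with corn oil against 165, 232 and 226 FPKM in WT, -0.44 ± 0.12, limma adjusted p = 0.0421), with 4.90% of tested genes called (3.05% higher, 1.85% lower). Leaving out a single library left at most 1 of these calls. In newborns C3 (3151, 3232 and 3119 FPKM in hCAR-TG against 2495, 2669 and 2461 FPKM in WT, 0.32 ± 0.10, limma adjusted p = 0.0431), C4b (0.30 ± 0.07, limma adjusted p = 0.00741) and Masp1 (0.28 ± 0.08, limma adjusted p = 0.0298) were higher in hCAR-TG, with 10.6% of tested genes called (8.29% higher, 2.27% lower). The newborn count was 0 when these groups were fitted alone and 1 without WT replicate 1 or 2, without hCAR-TG replicate 1 or 2, or without the libraries with pancreatic transcripts. The shares of all tested genes called in the refits at either age are not given here, so these counts are not read as particular to the members. Erythroid and neutrophil markers moved in the same comparison, with 7 of 7 and 8 of 8 higher in hCAR-TG newborns. Intestinal markers were higher there in 6 of 8 tested genes, and lymphocyte markers were lower in 3 of 7. Erythroid sums were 11596 to 14283 FPKM in hCAR-TG and 4874 to 6790 FPKM in WT. The part of these markers in the members' difference was not tested.

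Between day 5 and day 60, with corn oil, 5 of the 6 terminal complement genes rose, C9, C6, C8b and C8a having the largest rises of the 35 members, while C3, Cfb, Kng1 and Serpinf2 fell. In hCAR-TG mice 15 members were higher and 17 lower at day 60 (limma, 71.6% of tested genes called, 24.3% higher and 47.3% lower), and in WT mice 12 were higher and 15 lower (70.2% called, 25.2% higher and 44.9% lower). A total of 25 members were called in the same direction in both genotypes and 0 in opposite directions, which is 78.1% of the hCAR-TG calls and 92.6% of the WT calls. The same overlap was not counted over all tested genes, so it is not read as particular to the members. Groups did not overlap in 91.4% of members in hCAR-TG mice and 80% in WT mice, against 70.5% and 74.3% of tested genes. The read file number also separates the ages completely. It was 2 at day 60 and 4 or 5 at day 5 in hCAR-TG mice, and 1 and 3 in WT mice. The split of higher and lower calls depends on scaling: the median of all tested genes was -0.17 in hCAR-TG and -0.14 in WT as deposited and 0.06 in both after rescaling by median of ratios, where 17 members were higher and 9 lower in hCAR-TG and 18 higher and 8 lower in WT. The shares of all tested genes called after rescaling are not given here, so this shift is not read as particular to the members.

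C9 had 258, 262 and 262 FPKM at day 60 and 15.3, 26 and 9.1 FPKM at day 5 in hCAR-TG mice (3.99 ± 0.31, limma adjusted p = 1.07e-09). In WT mice it had 400, 337 and 257 FPKM at day 60 and 6.99, 11 and 19.4 FPKM at day 5 (4.71 ± 0.31, limma adjusted p = 1.19e-10). C6, which joins the assembling pore before C8 and C9, had 65.1, 72.3 and 70.2 FPKM at day 60 and 10.7, 8.63 and 5.42 FPKM at day 5 in hCAR-TG mice (2.97 ± 0.23), and rose by 3.17 ± 0.23 on the log2 scale in WT mice. C8b rose by 1.92 ± 0.12 in hCAR-TG and 2.42 ± 0.12 in WT, C8a by 1.61 ± 0.11 and 1.59 ± 0.11, and C8g by 1.08 ± 0.09 and 1.09 ± 0.09. Hc, the component that opens the terminal pathway, was not called in either genotype (0.09 ± 0.11 and -0.05 ± 0.11), so the terminal genes did not move as a unit. F9 rose by 1.08 ± 0.13 in hCAR-TG, to 63.1, 69 and 68.1 FPKM at day 60 against 37.2, 35.4 and 22.8 FPKM at day 5, and by 1.05 ± 0.13 in WT. Mbl1 (0.66 ± 0.10 and 0.80 ± 0.10) and Masp2 (0.61 ± 0.06 and 0.53 ± 0.06) rose in both genotypes.

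The largest fall with age was that of Kng1, to 851, 961 and 851 FPKM at day 60 against 2281, 2207 and 2186 FPKM at day 5 in hCAR-TG mice (-1.33 ± 0.10, limma adjusted p = 1.04e-10), and to 748, 928 and 994 FPKM at day 60 against 2342, 2690 and 2222 FPKM at day 5 in WT mice (-1.45 ± 0.10, limma adjusted p = 3.24e-11). C3 fell by 1.19 ± 0.10 in hCAR-TG and 0.84 ± 0.10 in WT, Cfb by 0.98 ± 0.07 and 0.83 ± 0.07, Serpinf2 by 0.89 ± 0.09 and 1.05 ± 0.09, and F11 by 0.70 ± 0.12 and 0.83 ± 0.12. Serpind1 fell by 0.47 ± 0.06 and 0.73 ± 0.06, and F10 by 0.53 ± 0.06 and 0.70 ± 0.06. Among the members called here, Serpinc1 (-0.17 and -0.24) lost its call in both genotypes after rescaling, at 0.11 and 0.00 (limma adjusted p = 0.146 and 0.964). Masp1, Plg and Proc lost their calls in hCAR-TG mice (limma adjusted p = 0.957, 0.481 and 0.0774). Fgb rose by 0.36 ± 0.10 in hCAR-TG and 0.25 ± 0.10 in WT. Markers of blood cells and of other liver cell types were mostly lower at day 60 in both genotypes. Of 8 tested intestinal markers, 8 were lower in hCAR-TG mice and 1 in WT mice. Neutrophil markers were lower in 8 of 8 genes (median log2 difference -5.32 in hCAR-TG and -4.41 in WT), lymphocyte markers in 7 of 7 (-1.39 and -1.48), erythroid markers in 7 of 7 in hCAR-TG and 6 of 7 in WT (-3.32 and -1.72), stellate cell markers in 8 and 9 of 10 (-0.95 and -1.15), and endothelial markers in 8 of 10 (-0.96 and -0.64). Hepatocyte marker sums were 58547 to 66606 FPKM at day 60 and 77370 to 83880 FPKM at day 5 in hCAR-TG mice, and 54910 to 64292 FPKM at day 60 and 86528 to 89160 FPKM at day 5 in WT mice (4 of 9 lower and 2 higher in each). Kupffer cell markers were lower in 11 of 11 tested genes, at 214 to 291 FPKM at day 60 against 665 to 1065 FPKM at day 5 in hCAR-TG mice, and 286 to 324 FPKM at day 60 against 669 to 700 FPKM at day 5 in WT mice. In the related lists, C1qb (-1.38 ± 0.08 in hCAR-TG and -1.26 ± 0.08 in WT) and C1qc, C1q chains made mainly by macrophages, fell. Both genes are also on the Kupffer cell marker list, so their fall is part of those marker counts and sums. C4bp, an inhibitor of the classical convertase, rose by 1.30 ± 0.08 in hCAR-TG and 1.28 ± 0.08 in WT. What share of the members' age differences goes with the mix of cells was not tested.

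**Figure D5:**
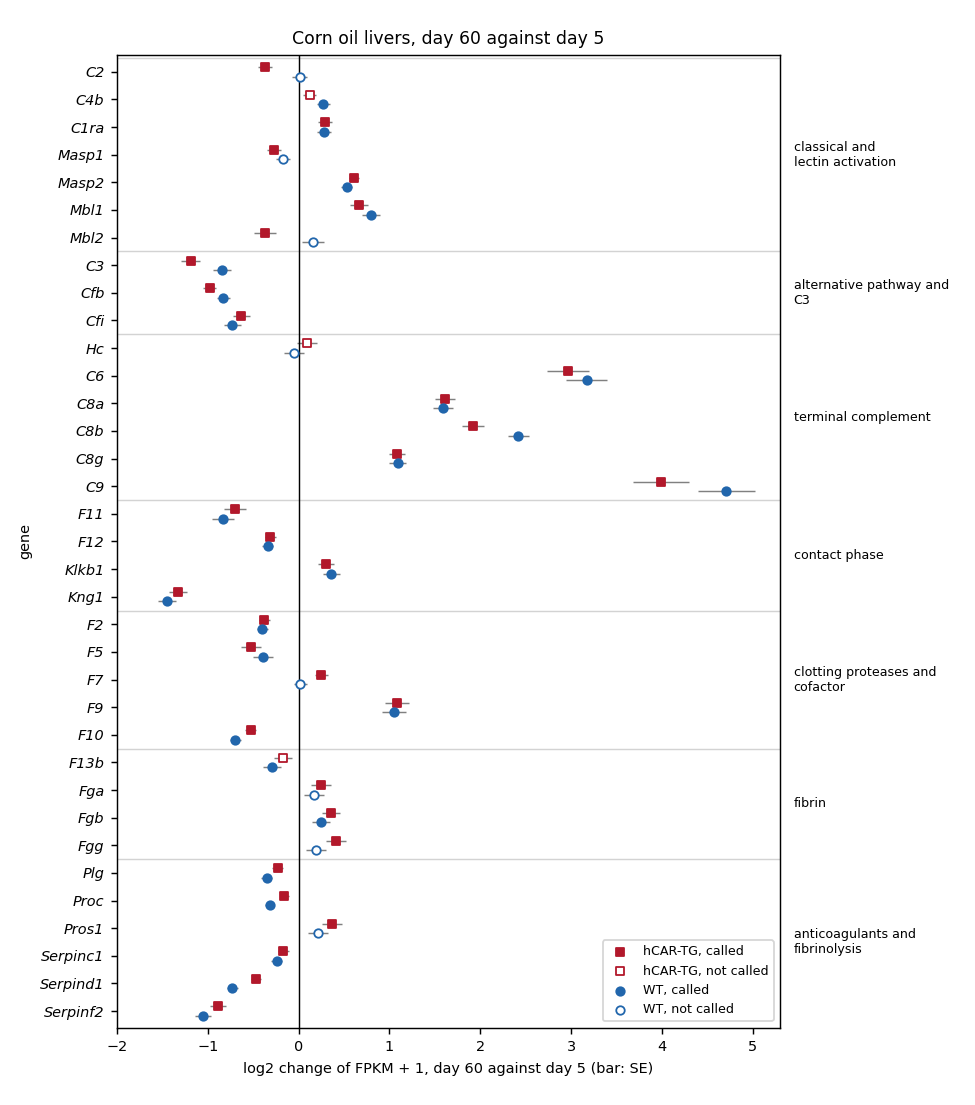
Log2 difference of day 60 over day 5 with corn oil for the 35 members, grouped by role, in hCAR-TG and WT mice; points are estimates and bars are SE. C9 (3.99 and 4.71), C6 (2.97 and 3.17) and C8b (1.92 and 2.42) lie furthest to the right and Kng1 (-1.33 and -1.45) furthest to the left.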

How the data were processed

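Liver RNA was extracted with RNA Bee and made into TruSeq stranded mRNA libraries, per the labels' protocols. The authors deposited 1 table of FPKM per library, with a confidence interval and a status for each gene per the file headers, and per the submitters' processing notes the build was mm10. Read counts were not used here, so depth is unknown. Summed FPKM was 451546 to 502499 per library, and 5 genes with a failed estimate were left out.

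From these values, log2(FPKM + 1) was computed, so fold changes understate those of low genes. Genes at 1 FPKM or more in at least 3 of 24 libraries (12282 of 24339) were fitted across the 8 groups with limma 3.58.1 (R 4.3.3), with trended and robust variance. All 12 comparisons used two-sided p-values, adjusted across the 12282 genes by Benjamini-Hochberg, with calls at 0.05. The procedure was tested on simulated data for the ligand comparisons, with noise drawn independently for each gene, unlike real data. It recovered 82% to 90% of log2 changes of 0.5 and 96% to 99% of those of 1. False calls were 4.08% of calls for TCPOBOP and 2.69% for CITCO in newborns. In adults they were 6.77% for TCPOBOP and 7.14% for CITCO, above the nominal rate. Alternatives were a pseudocount of 0.1, other filters, rescaling by median of ratios, array weights, a replicate block, leaving out each library, and fits of the compared libraries alone. With the read file number as a factor, and without the libraries with pancreatic transcripts, results were recomputed after the data were seen. Coordinates are counted from 1.

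The 35 members, the gene and marker lists and the tests were chosen with earlier results of these data known. Library values are given for called members without overlap of groups and with the largest log2 changes, up to 6 in each direction for ligand and age comparisons and up to 4 for others, plus 1 per functional class, and other members were named from their values. List genes were named by lowest adjusted p, up to 4 per list.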

Additional observations from a re-analysis of the deposited data

Results flagged for a closer look

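These members' responses differed between ages, or between receptor and ligand pairs, by limma's test of the difference itself. Up to 4 members with the largest called difference are given per comparison. Groups of 3 libraries were not tested for a single library standing apart.

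Between ages, the TCPOBOP response of WT mice (day 60 minus day 5, log2) differed by -1.55 for C9, -1.11 for C8b, -0.98 for Fga and -0.98 for Mbl1. The CITCO response of hCAR-TG mice (day 60 minus day 5) differed by 0.57 for Serpind1, 0.54 for C2 and 0.47 for C3.

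Between the CITCO response of hCAR-TG mice and the TCPOBOP response of WT mice (CITCO minus TCPOBOP), the difference at day 60 was 1.83 for C9, 1.19 for F11, 1.16 for C8a and 0.94 for C8b. At day 5 it was 0.83 for F11, 0.77 for F9, 0.72 for C8a and 0.71 for C4b.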

How the results depend on the processing

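Counts of called members below are from limma. They are given without the share of all tested genes called under each setting, so a changed count may not be particular to the members. The TCPOBOP, age and CITCO minus TCPOBOP counts stayed within 1.5 times their values under all alternatives run, and the TCPOBOP age difference did so except with array weights (26 members). For CITCO in newborns (9 members) the count was 25 with array weights, 2 for the compared libraries alone and 3 without the 3 libraries with pancreatic transcripts. For CITCO in adults (4) it was 8 with array weights, 2 with the read file number as a factor, and 7 alone. For the CITCO age difference (3) it was 7 after rescaling, 13 with array weights and 13 with the read file number. For genotype in newborns (3) it was 10 with array weights, 0 alone and 1 without the pancreatic libraries. For genotype in adults (2) it was 6 with array weights, 1 after rescaling, 1 with no filter, 1 with the replicate block, 0 with the read file number and 0 alone.

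Leaving out 1 library gave 29 to 30 members for TCPOBOP in adults, 16 to 19 in newborns and 12 to 17 for their difference. It gave 1 to 4 for CITCO in adults, 3 to 10 in newborns and 2 to 7 for their difference. CITCO minus TCPOBOP gave 22 to 26 in adults and 14 to 17 in newborns, genotype 0 to 1 and 1 to 4, and age 29 to 32 in hCAR-TG and 26 to 27 in WT.

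With the read file number as a factor, the newborn CITCO changes of F9 and Hc changed sign. F9, not called in the main fit, was called higher (0.38, limma adjusted p = 0.0176), and Hc lost its call (0.01, limma adjusted p = 0.927). That factor could not be fitted to the newborn TCPOBOP response, its difference from the adult one, or its difference from the newborn CITCO response. Nor could it be fitted to genotype in newborns or age in hCAR-TG mice. After rescaling, the age falls of Serpinc1 in WT (0.00) and of Masp1 (0.01), Plg (0.05), Proc (0.12) and Serpinc1 (0.11) in hCAR-TG lost their calls. Their limma adjusted p-values were 0.964, 0.957, 0.481, 0.0774 and 0.146, so none was called in the other direction. The cause was not tested. Deviations of same-numbered replicates from their group means had correlations of -0.18 to 0.26, the highest for replicate 2 of the newborn TCPOBOP comparison. Differently numbered replicates were not compared, so whether the numbers pair the libraries is not settled. Apart from genotype in adults, the replicate block changed no count by over 1.5 times. With 3 libraries per group and unknown depth, small changes of low genes are the least certain.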
